A study of Homo sapiens with 2 samples.

Results

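Neurons respond to glutamate and GABA through receptors assembled from subunits, and each subunit has its own gene. The subunit genes described here were selected by their symbols: GRIA, GRIN, GRIK, GRID and GRM for glutamate, GABR and GABBR for GABA. In all, 47 of the 61487 genes in the deposited files matched, 26 of them for glutamate receptors and 21 for GABA receptors.

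Human embryonic stem cells of the H9 line (WA09) were differentiated towards serotonin neurons, and cells carrying EGFP were collected by sorting on day 42 for single-cell RNA sequencing on 10x Genomics 3' chemistry. The library labelled WT came from cells with EGFP knocked in at TPH2, whose product is the rate-limiting enzyme of serotonin synthesis in neurons. For the library labelled FKO the same reporter was placed on a FOXA2 knockout background, a line with an indel derived from drug-resistant clones. Each label stands for 1 library of 1 line, so there are no replicates, and a difference between the lines, the differentiations or the library preparations cannot be told apart from one between genotypes. The sort on a TPH2 reporter sets which cells could be seen at all. Purmorphamine, a hedgehog pathway activator, was used in the differentiation. For cells stained on the same day the paper's main text gives a low and a high concentration for both genotypes. A further panel of that day pairs the low one with WT and the high one with FKO. The concentration for these libraries was not found in the labels or the main text.

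The library labelled WT held 11052 barcodes with 123064653 unique molecular identifiers (UMIs, 1 per captured transcript), and the library labelled FKO held 8806 barcodes with 70588747. Filters on UMIs, genes, mitochondrial share and doublets left 5746 and 6979 cells, at a median depth of 12439.5 and 6936 UMIs. The mitochondrial limit of 10% fell unevenly, since 40.4% of barcodes labelled WT and 13.5% of those labelled FKO were above it. Between the libraries, 21 cell barcodes were shared. Levels are given as counts scaled to the library total (CPM), the UMIs of a gene over all UMIs of the kept cells of a library. Every log2 ratio is FKO over WT, and ranges in parentheses are exact 95% intervals, which take in nothing but counting error.

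FOXA2, the targeted gene, encodes a forkhead transcription factor of the ventral midline. The library labelled WT held 333 of its UMIs (4.35 CPM, 3.89 to 4.84) and the library labelled FKO 1301 (22.4 CPM, 21.2 to 23.7). The resulting log2 ratio of 2.37 (2.19 to 2.55) came down to 0.15 with at most 5% mitochondrial UMIs per cell (338 and 2891 cells), under the all-gene median of 0.47 in that setting. In every other alternative setting it lay between 1.49 and 2.52, with 2.31 in cells that had a TPH2 UMI. Counts of 3' ends do not read an indel, so this gene checks neither label, and every direction here rests on the labels. The other floor plate markers did not move together, with SHH at -1.11 and CORIN at -2.06 but FOXA1 at 1.85 and NTN1 at 1.12. As for the cell type, all 9 serotonergic markers examined were detected in both libraries, with FEV the most abundant. They summed to 2922 CPM under the WT label and to 2467 CPM under the FKO label. There 5 of the 9 genes were higher and 4 lower, beside 75.0% of all genes higher. The lower ones were FEV (-0.80), MAOB (-0.32), TPH2 (-0.29) and DDC (-0.26). The higher ones were SLC18A2 (1.39), LMX1B (1.11), SLC6A4 (1.06), GATA2 (0.80) and GATA3 (0.46). The 5 neuronal markers, led by STMN2, summed to 7576 and 10033 CPM. This log2 ratio of 0.41 is under the all-gene median of 0.55 for all kept cells, and 1 of the 5 genes lay above that median.

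Ionotropic glutamate receptors (AMPA, NMDA, kainate) are cation channels that carry fast excitation, while metabotropic receptors act through G proteins. GABA-A receptors are pentameric chloride channels, and GABA-B receptors are obligate pairs of GABBR1 and GABBR2 that signal through G proteins. Serotonin neurons of the raphe receive both glutamatergic and GABAergic input, and their firing is set in part by the balance of these inputs.

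Levels differed between the libraries across all genes, so the receptor genes are read against that shift. Over 15374 genes with a mean of at least 1 CPM, the median log2 ratio was 0.55, and 75.0% of genes were above 0. At a 2-fold difference, 26.6% stood higher under the FKO label and 2.21% lower. After the all-gene median was taken off each ratio, 9.82% were higher and 10.4% lower by that fold. Gene length moved with the ratio as well. The 3031 genes of at least 100 kb had a median of 0.88, with 40.3% at least 2-fold higher, against a median of 0.45 and 22.7% for the 11987 shorter genes.

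Of the 47 receptor genes, 32 passed the limit of 1 CPM and 15 did not. For 6 of the 32 (GRIK1, GRIK3, GRM5, GRM8, GABRB2 and GABRG3) the limit was met through the library labelled FKO alone, so counts over the 32 lean towards that library. Raw ratios placed 22 of the 32 at least 2-fold higher in the library labelled FKO, or 68.75% beside 26.6% of all genes, and 0 at least 2-fold lower, beside 2.21%. With the all-gene median taken off, 12 of the 32 (37.5%) were at least 2-fold higher, beside 9.82%, and 0 were lower, beside 10.4%. All 32 raw ratios were above 0, beside 75.0% of all genes. Their intervals were above 0 as well, with no share of all genes to set beside that. Relative to the all-gene median GRIA4 fell below with its interval, at -0.22. GABRA2 was at -0.02, and its interval includes that median. With at least 1 CPM asked of each library, an alternative chosen after seeing the data, 16 of 26 were at least 2-fold higher, beside 22.1% of all genes. In that setting 0 were 2-fold lower, beside 1.81%. Less the same median of 0.55, 6 of those 26 were at least 2-fold higher, beside 5.69%, and 0 lower, beside 10.5%. The median of the 32 was 1.40, with a range of 0.32 to 4.71.

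These are long genes, with a median gene body of 348 kb. Among the 26 of at least 100 kb, 18 were at least 2-fold higher, beside 40.3% of all genes of that length. The median log2 ratio of the 26 was 1.42, beside 0.88. These 26 include all 6 genes that met the limit through the library labelled FKO alone, each at least 2-fold higher. The count and median of the 26 therefore lean towards that library. For the 6 genes under 100 kb the count was 4, beside 22.7% of all shorter genes, and the median 1.06, beside 0.45. Against the median of long genes, an alternative chosen after seeing the data, 26 of the 32 stayed above 0. All genes that met the limit through the library labelled FKO alone are among those 26. The 6 that did not were GRIA4, GABRA2, GRIK5, GRID1, GABBR1 and GRIN2A, the last of which was named after its values were seen. Of these, GRIK5 (71.2 kb) and GABBR1 (78.3 kb) are shorter than 100 kb. Their ratios of 0.68 and 0.85 lay above the median of 0.45 for shorter genes. Whether length had a part in the difference was not tested.

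**Figure D1:**
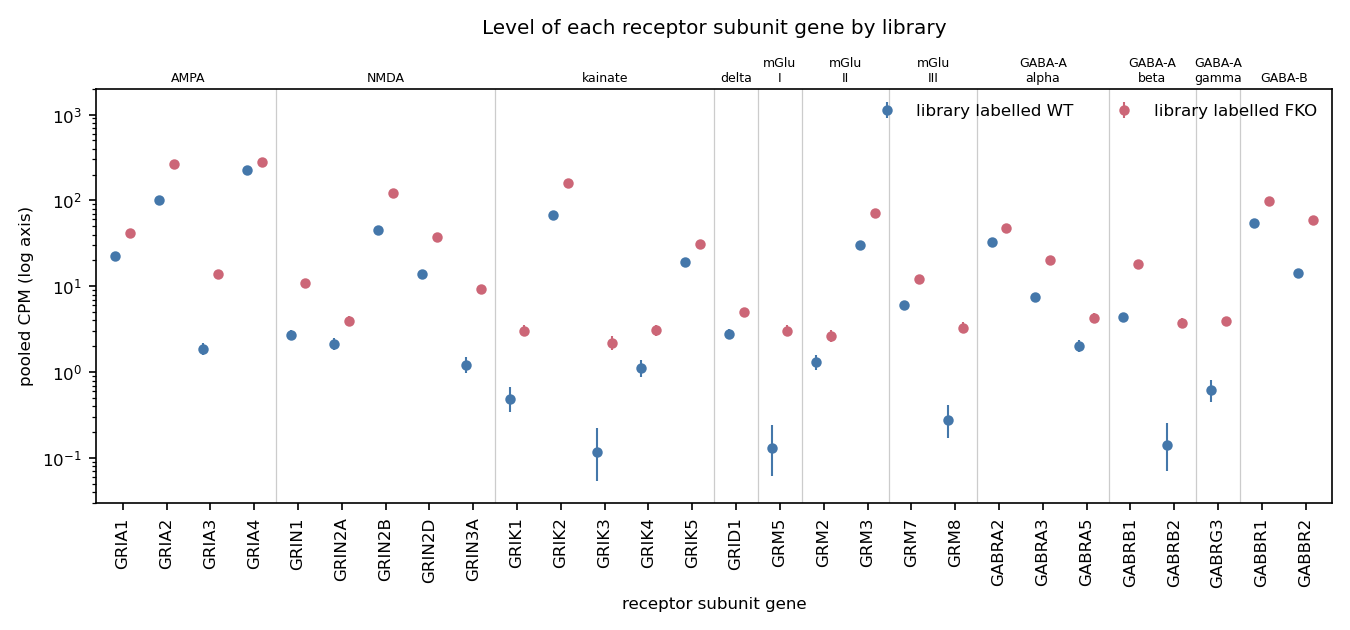
Pooled CPM on a log axis of 28 of the 32 receptor subunit genes that passed the limit of 1 CPM, by receptor class, in the library labelled WT (blue) and the library labelled FKO (red), with exact 95% Poisson intervals as bars. All 28 red points lie above their blue partners. Once the all-gene median is taken off, GRIA4 and GABRA2 fall below 0, although the interval of the GABRA2 ratio includes that median. GRIK5, GRID1, GABBR1 and GRIN2A fall below 0 as well against genes of at least 100 kb. GRIK5 and GABBR1 are themselves shorter than 100 kb.

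Most of the 15 genes under the limit are given with their counts. No UMI of GABRA6 or GABRR1 was found in either library, which in the library labelled WT allows at most 0.0481 CPM as the upper bound of the interval. GABRP had 4 UMIs, all in the library labelled WT. The rho genes, whose subunits form retinal-type GABA channels, had 3 and 6 UMIs for GABRR2 and 1 and 1 for GABRR3. GABRQ, which encodes the theta subunit, was the best counted of the 15, with 56 UMIs (0.731 CPM) against 44 UMIs (0.759 CPM). Its log2 ratio of 0.05 (-0.55 to 0.65) was the lowest among members with at least 50 UMIs, and a difference was not detectable at this depth. For GABRD, the delta subunit of extrasynaptic receptors, the counts were 11 and 20 UMIs. Others were GRIN3B, GRM6, GABRA4, GABRG1 and GABRE, each under 1 CPM in both libraries, as were GRM4 and GRIN2C. GRM4 had 16 and 57 UMIs with a ratio of 2.24 (1.41 to 3.13), and GRIN2C 10 and 22 UMIs with 1.54 (0.40 to 2.78).

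Summed over the 26 glutamate receptor genes, the level was 579 CPM (573 to 584) in the library labelled WT and 1147 CPM (1138 to 1155) in the library labelled FKO. This gave a log2 ratio of 0.99 (0.97 to 1.004), and 0.44 once the all-gene median was taken off. The 21 GABA receptor genes summed to 216 CPM (213 to 219) and 465 CPM (460 to 471), with a ratio of 1.11 (1.08 to 1.14), and 0.56 with that median taken off. Both sums were thus higher in the library labelled FKO on either scale, and both remained above 0 against genes of at least 100 kb, at 0.11 and 0.23. The UMIs of glutamate receptors outnumbered those of GABA receptors 2.68-fold in the library labelled WT and 2.47-fold in the library labelled FKO.

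AMPA receptors are tetramers of GRIA1 to GRIA4 subunits and carry most fast excitatory current. Their summed level rose from 349 CPM (345 to 353) to 599 CPM (593 to 606), a log2 ratio of 0.78 (0.76 to 0.80) that became -0.09 against genes of at least 100 kb. The class was dominated by a pair of genes that did not move together. GRIA4 (ENSG00000152578, chr11:105609994-105982092, plus strand, GRCh38) stood at 223 CPM (220 to 227) in the library labelled WT and 279 CPM (275 to 283) in the library labelled FKO. The log2 ratio of 0.32 (0.29 to 0.35) was the lowest of the 32 and flipped to -0.22 relative to the all-gene median. GRIA2 (ENSG00000120251, chr4:157204182-157366075, plus strand) encodes the subunit whose edited form makes AMPA channels nearly impermeable to calcium. It rose from 101.2 CPM (99.0 to 104) to 264 CPM (260 to 269), a log2 ratio of 1.38 (1.35 to 1.42).

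The composition of the AMPA class differed accordingly. GRIA4 made up 64.0% of AMPA UMIs in the library labelled WT but 46.5% in the library labelled FKO, and GRIA2 made up 29.01% and 44.1%. A ratio of UMIs within a library is untouched by scaling between libraries, and GRIA4 over GRIA2 went from 2.20 to 1.05. Which of the pair leads depends on the length scale. Per kb of merged exons GRIA4 held 60.3% and 42.6% of the class and GRIA2 30.8% and 45.6%, whereas per kb of gene body GRIA2 held 48.1% and 63.8% and GRIA4 46.1% and 29.3%. The order of this pair in the library labelled WT therefore depends on the scale, while GRIA2 led on both length scales in the library labelled FKO. The GRIA2 share was higher and the GRIA4 share lower in the library labelled FKO in 12 of 12 settings of cell filtering and pooling. GRIA1 and GRIA3 accounted for the rest, with log2 ratios of 0.90 and 2.90, the latter from 1.87 to 13.9 CPM; both were named to complete the class after their values were seen.

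**Figure D2:**
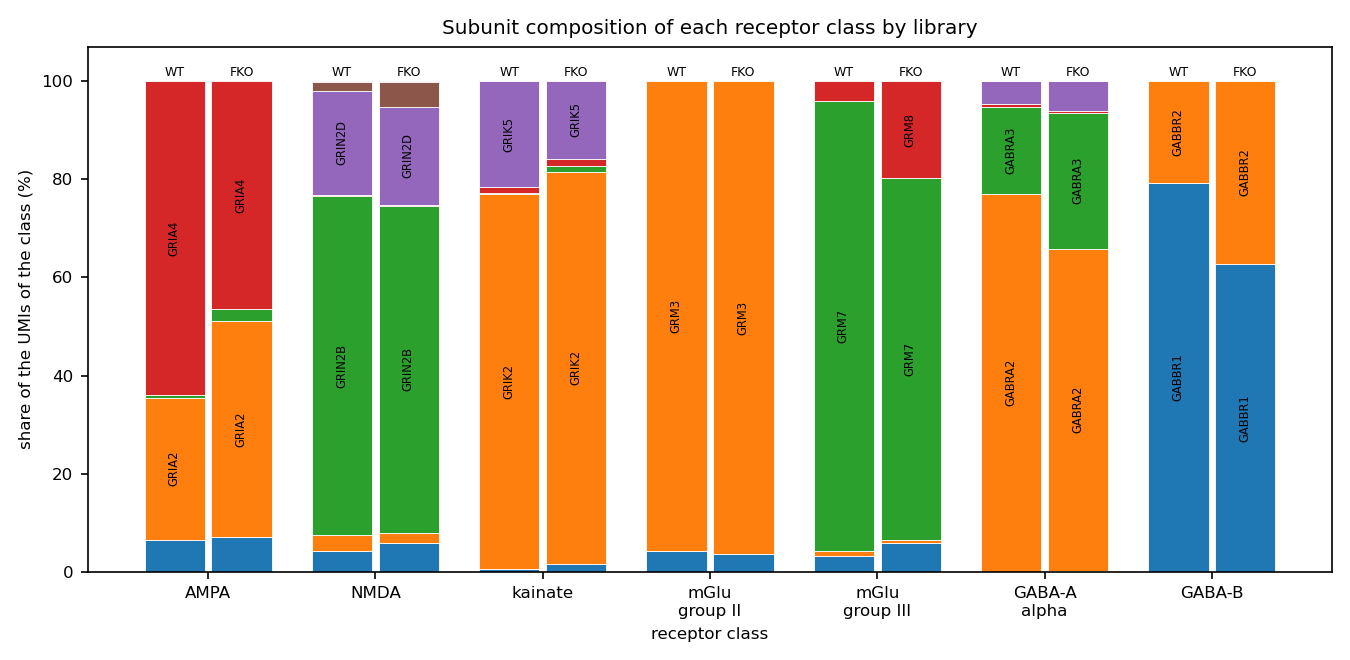
Share of the UMIs of 7 receptor classes (%) held by each subunit gene, with the library labelled WT on the left and the library labelled FKO on the right of each pair of bars and no name on segments under 10%. Without correction for gene length, GRIA2, GABBR2, GRM8 and GABRA3 hold a larger segment in the library labelled FKO.

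NMDA receptors need the obligatory GRIN1 subunit together with GRIN2 or GRIN3 subunits. The class went from 65.8 CPM (64.0 to 67.6) to 185 CPM (182 to 189), a log2 ratio of 1.495 (1.45 to 1.54). GRIN2B, whose subunit gives slowly decaying currents and prevails early in development, rose from 45.6 to 124 CPM with a log2 ratio of 1.44 (1.38 to 1.497). GRIN2D, another early subunit with low magnesium block, rose from 13.9 to 37.2 CPM with a log2 ratio of 1.42 (1.31 to 1.53). The shares of these genes in the class hardly moved, from 69.3% to 66.6% for GRIN2B and from 21.1% to 20.03% for GRIN2D. The order was the reverse on either length scale. Per kb of gene body GRIN2D stood at 57.7% and 51.6% of the class and GRIN2B at 17.4% and 15.8%, and per kb of merged exons at 55.4% and 50.6% against 29.9% and 27.7%. GRIN3A, which lowers calcium entry through the receptors it joins, had one of the 5 highest ratios of all members, 2.95 (2.63 to 3.28), from 1.21 to 9.35 CPM. UMIs of GRIN2 genes outnumbered those of GRIN1 22.75-fold and 15.1-fold, or 10.8-fold and 7.14-fold per kb of merged exons and 4.18-fold and 2.78-fold per kb of gene body.

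Kainate receptors modulate transmitter release as well as excitability. Their sum was 89.5 CPM (87.4 to 91.6) and 198 CPM (194 to 201), a log2 ratio of 1.14 (1.10 to 1.19). GRIK2, the core subunit with most of the class UMIs, rose from 68.4 to 158 CPM with a log2 ratio of 1.21 (1.16 to 1.26). GRIK5, an auxiliary high-affinity subunit that needs a partner to form a channel, had a ratio of 0.68 (0.58 to 0.78). Against genes of at least 100 kb this became -0.19. The gene body of GRIK5 is shorter, at 71.2 kb, and its ratio lay above the median of 0.45 for genes under that limit. Per kb of gene body GRIK5 held 77.1% and 68.5% of the class and GRIK2 21.8% and 27.9%, whereas per kb of merged exons GRIK2 led, at 68.6% and 73.4%. GRIK3 was nearly absent from the library labelled WT, at 9 UMIs or 0.117 CPM (0.0537 to 0.223), against 127 UMIs or 2.19 CPM (1.83 to 2.61). Its ratio of 4.22 (3.25 to 5.38) ranked in the highest 5.

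Delta receptors bind cerebellins across the synapse rather than acting as ordinary glutamate-gated channels. Of these, GRID1 had a ratio of 0.84 (0.58 to 1.10), which became -0.04 against genes of at least 100 kb.

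Metabotropic glutamate receptors form 3 groups by sequence and G protein. Group I couples to phospholipase C, and within it GRM5 went from 10 UMIs (0.131 CPM) to 177 UMIs (3.05 CPM), a ratio of 4.55 (3.64 to 5.63). Groups II and III inhibit adenylyl cyclase, and group II, with 95.9% and 96.4% of its UMIs from GRM3, went from 31.8 to 74.6 CPM. GRM3 itself had a log2 ratio of 1.24 (1.16 to 1.31). In group III, GRM7, a low-affinity presynaptic receptor, went from 6.11 to 12.3 CPM with a ratio of 1.012 (0.84 to 1.18). GRM8, a presynaptic receptor of higher affinity, had 21 UMIs (0.274 CPM) and 191 UMIs (3.29 CPM), a ratio of 3.59 (2.93 to 4.31). Its share of group III rose from 4.11% to 19.7%.

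GABA-A channels usually combine alpha, beta and gamma subunits. The alpha genes summed to 42.9 CPM (41.4 to 44.4) and 72.5 CPM (70.3 to 74.7), a log2 ratio of 0.76 (0.69 to 0.82) that became -0.12 against genes of at least 100 kb. GABRA2 led this class at 33.1 and 47.7 CPM. Its ratio of 0.53 (0.45 to 0.61) became -0.02 relative to the all-gene median, which lies within that interval. GABRA3, whose receptors have a low affinity for GABA and are common on monoamine neurons, rose from 7.57 to 20.1 CPM with a ratio of 1.41 (1.26 to 1.55). In shares of alpha UMIs, GABRA2 went from 77.1% to 65.8% and GABRA3 from 17.7% to 27.7%. Per kb of gene body GABRA2 led GABRA3 in both libraries, at 73.0% against 13.3% (WT) and 62.0% against 20.8% (FKO). Per kb of merged exons the order turned in the library labelled FKO, where GABRA3 held 48.5% and GABRA2 40.5%, against 35.5% and 54.5% in the library labelled WT.

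Beta subunits are needed for assembly and for the GABA binding site. Their sum was 94.3 CPM (92.2 to 96.5) and 200 CPM (196 to 203), a log2 ratio of 1.08 (1.04 to 1.12). GABRB2 had the highest ratio of all members, 4.71 (3.84 to 5.74), from 11 UMIs (0.144 CPM) to 218 UMIs (3.76 CPM). Gamma subunits anchor receptors at synapses and complete the benzodiazepine site. The gamma class had the highest ratio of any class with more than 100 UMIs in each library, 2.03 (1.90 to 2.16), from 8.55 CPM (7.91 to 9.23) to 34.9 CPM (33.4 to 36.4). Among its genes, GABRG3 went from 0.613 to 3.90 CPM with a ratio of 2.67 (2.21 to 3.15). UMIs of alpha genes outnumbered those of gamma genes 5.02-fold in the library labelled WT and 2.08-fold in the library labelled FKO.

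GABA-B receptors couple to potassium and calcium channels and act on a slower scale. GABBR1, which binds GABA, went from 54.7 CPM (53.0 to 56.3) to 98.5 CPM (96.0 to 101.1). Its log2 ratio of 0.85 (0.79 to 0.91) became -0.03 against genes of at least 100 kb. The gene body of GABBR1 is shorter, at 78.3 kb, and its ratio lay above the median of 0.45 for genes under that limit. GABBR2, which couples to the G protein and carries GABBR1 to the cell surface, went from 14.4 CPM (13.5 to 15.2) to 58.4 CPM (56.4 to 60.4), a ratio of 2.02 (1.92 to 2.12). GABBR1 UMIs outnumbered those of its partner 3.80-fold and 1.69-fold. On shares of class UMIs, GABBR2 rose from 20.8% to 37.2%, a direction seen in 12 of 12 settings of cell filtering and pooling. The lead of GABBR1 was wider per kb of gene body, at 95.3% and 90.1% of the class, and narrower per kb of merged exons, at 77.4% and 60.3%.

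**Figure D3:**
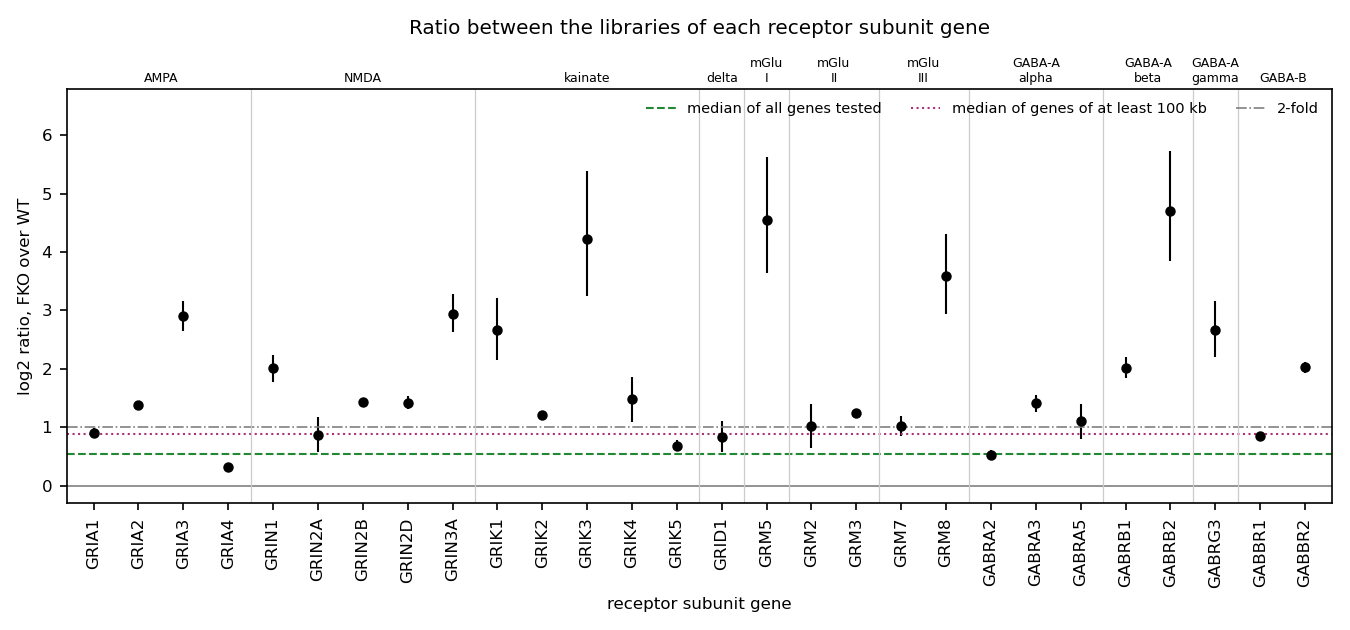
Log2 ratio of FKO over WT of 28 of the 32 receptor subunit genes that passed the limit of 1 CPM, by class, with exact conditional 95% intervals as bars and lines at 0, the median of all genes tested (0.55), the median of genes of at least 100 kb (0.88) and a 2-fold difference. GRIA4 and GABRA2 lie under the all-gene median, which the interval of GABRA2 includes. GRIK5, GRID1, GABBR1 and GRIN2A lie between the medians. GRIK5 and GABBR1 are themselves shorter than 100 kb.

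Promoter sequences were available from RefSeq (GRCh38.p14) for 34 of the 47 genes, as 51 start sites. Windows of 250 bases before to 50 bases after each start were searched for TGTTTAC, the core of the FOXA binding motif, on both strands. It was found in 2 of the 51 windows (3.92%), beside 1202 of all 35116 windows (3.42%). These were 1 of 4 starts of GRM8, with the letters on the opposite strand beginning 71 bases before the start, and 1 of 2 starts of GABRR1, a gene with no UMI here. The 250 bases before the start are printed for that GRM8 site and for GRIK3 and GRIN3A, as the members among the 5 highest ratios whose printed bases overlap no annotated exon and that either hold the motif or have a single start. Capitals mark the motif. A match is a description of letters and nothing more. The GRM8 window lies at chr7:127243516-127243765, that of GRIK3 at chr1:37034516-37034765 and that of GRIN3A at chr9:101738648-101738897, all on the minus strand.
GRM8: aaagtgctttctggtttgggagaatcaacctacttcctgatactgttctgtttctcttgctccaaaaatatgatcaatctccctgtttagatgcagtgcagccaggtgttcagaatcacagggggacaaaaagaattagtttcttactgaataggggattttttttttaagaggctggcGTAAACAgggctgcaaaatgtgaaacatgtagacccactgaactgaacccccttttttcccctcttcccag
GRIK3: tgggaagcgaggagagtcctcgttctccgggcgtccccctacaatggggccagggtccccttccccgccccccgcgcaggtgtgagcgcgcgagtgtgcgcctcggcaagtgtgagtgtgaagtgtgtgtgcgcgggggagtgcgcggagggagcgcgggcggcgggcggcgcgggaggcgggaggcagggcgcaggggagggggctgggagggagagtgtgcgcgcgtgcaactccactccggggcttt
GRIN3A: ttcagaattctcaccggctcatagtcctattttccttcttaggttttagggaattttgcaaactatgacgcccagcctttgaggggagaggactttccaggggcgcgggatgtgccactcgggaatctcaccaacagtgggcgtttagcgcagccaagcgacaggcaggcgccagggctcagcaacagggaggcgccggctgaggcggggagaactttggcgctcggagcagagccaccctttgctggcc

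Several GABA-A genes lie next to each other in the genome, with no other protein-coding gene between them. Of the pairs on chromosome 4, GABRA2 had a ratio of 0.53 beside GABRG1 with 5 and 12 UMIs, and GABRB1 had 2.02 beside GABRA4 with 17 and 20 UMIs. These neighbours did not share a level, and GABRB1 was named after its values were seen.

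Cells of both libraries were clustered together after integration, which gave 8 clusters, described by number and leading genes. A ratio was computed for each gene with at least 20 UMIs in a cluster, summed over both libraries, which gave 199 pairs of gene and cluster. Some pairs met this limit through the library labelled FKO alone, such as GRM5 in cluster 3 (1 and 54 UMIs) and GABRB2 in cluster 5 (0 and 33). GABRQ in cluster 2 (20 and 18) met it through the library labelled WT alone. Counts over the pairs can therefore lean towards the library with more UMIs of a gene. Of the 199 pairs, 196 were higher in the library labelled FKO, 136 of them by at least 2-fold, and 172 had intervals above 0 and 0 below. The 196 and 136 are 98.5% and 68.3% of the pairs, beside 72.3% and 26.3% of 106578 pairs over all genes at the same limit. No share over all genes stands beside the 172. Against the all-gene median of each cluster, which lay between 0.29 and 0.56, 178 of the 199 were above, 133 with their intervals, and 7 had intervals below. The 3 lower pairs were GRM7 and GRIN2A, at -0.25 and -0.30 in clusters 3 and 6, and GRID1 in cluster 5 at -0.18. For 16 genes a ratio could be given in all 8 clusters, and 15 of them were higher in every one, the exception being GRM7, beside 51.6% of the 8446 genes with a ratio in all 8. GRIA4 had raw ratios from 0.14 to 0.77 over the clusters, and its intervals lay below the all-gene median in clusters 1, 2 and 4.

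Among clusters, summed glutamate receptors were highest in cluster 7, at 1245 CPM (WT) and 1925 CPM (FKO). GABA receptors were highest there only in the library labelled FKO (596 CPM), while in the library labelled WT cluster 3 led with 259 CPM against 230.2 CPM in cluster 7. This cluster is shallow, with median UMIs of 2767.5 and 2870, and GRIK2 is among its leading genes, although receptor genes had no part in defining the clusters. Cluster 6 was lowest in both libraries, at 311 and 112 CPM with the libraries pooled. It was led by COL1A1 and COL1A2, with high cycling and progenitor markers and the lowest neuronal markers, 2092 CPM. GRIN2A ran the other way, with its highest level in cluster 6 in both libraries, 28.5 CPM (WT) and 23.3 CPM (FKO). Cluster 3, led by HCRT and PTH2 with ONECUT2 and EBF1 among its leading genes, had the highest level of GRIN3A in both libraries, 9.47 and 28.3 CPM. GRM3 was highest in cluster 3 in the library labelled WT (98.0 CPM) but in cluster 4 in the library labelled FKO (111.1 CPM). In cluster 3 its log2 ratio was 0.07 (-0.08 to 0.23), with the interval below the all-gene median of that cluster, 0.48.

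The shift between GRIA4 and GRIA2 was present within clusters. In 8 of 8 clusters the library labelled FKO had the higher GRIA2 share and the lower GRIA4 share of AMPA UMIs. In cluster 4 the GRIA2 share went from 41.1% (38.8 to 43.5) to 63.3% (61.0 to 65.5). Outside cluster 6, cluster 2 had the lowest GRIA2 share, 19.6% (18.6 to 20.6), against 39.0% (37.9 to 40.1). In cluster 7 the shares were 43.1% (37.2 to 49.2) and 45.5% (42.5 to 48.4), a difference within the intervals.

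**Figure D4:**
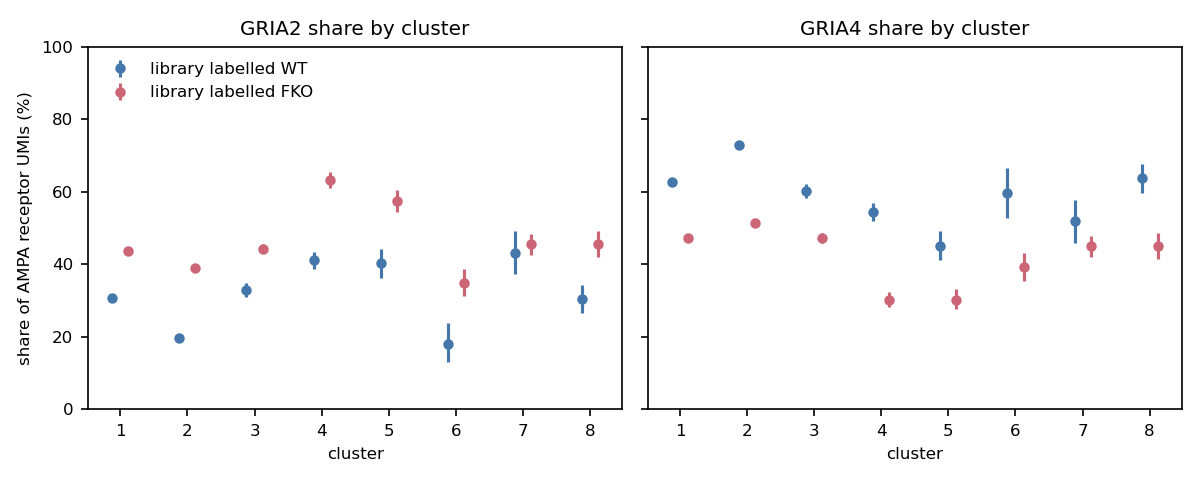
Share of AMPA receptor UMIs (%) of GRIA2 (left) and GRIA4 (right) by cluster in the library labelled WT (blue) and the library labelled FKO (red), with exact Clopper-Pearson 95% intervals as bars. In 8 of 8 clusters the red point is higher for GRIA2 and lower for GRIA4, and the GRIA2 difference is least in cluster 7 (43.1% and 45.5%).

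Shares of cells with a UMI depend on depth, so each cell was thinned to 5000 UMIs, which left out 179 cells labelled WT and 1390 labelled FKO. Cluster 6 served as the background of free RNA, with median depths before thinning of 18437.5 and 10249 UMIs, against 12632 and 7683 over all thinned cells. A GRIA2 UMI was found in 38.0% (WT) and 67.4% (FKO) of cells, beside 3.57% and 14.7% of cluster 6. Without thinning the shares were 63.3% and 78.1%, beside 16.3% and 25.1% in cluster 6. GRIA4 was found in 60.7% and 68.2%, against 11.9% and 16.6% in cluster 6. Unthinned the order turned, at 82.6% and 75.7%, beside 35.9% and 27.2% in cluster 6. These genes stood well above background in both libraries.

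Other genes stood close to the background or under it. GRIK3 was found in 0.984% of cells labelled FKO against 1.30% in cluster 6, with unthinned shares of 0.157% (WT) and 1.68% (FKO), and in 0.0539% of cells labelled WT against 0% in cluster 6. GRIN2A, in 0.808% and 1.65% of cells (1.91% and 2.23% unthinned), had 14.3% and 8.47% in cluster 6, but its level was highest there, so that cluster gives no background for this gene. GABRG3, at 0.269% and 1.70%, was also under its cluster 6 shares of 1.79% and 2.28%, with unthinned shares of 0.731% and 2.72%. Whether cluster 6 holds cells that express these genes was not tested.

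A receptor needs its partners in the same cell, so combinations were counted at the same depth. GABBR1 met GABBR2 in 1.74% (1.42 to 2.12) of cells under the WT label and in 9.64% (8.88 to 10.4) under the FKO label, beside 0.595% and 1.63% in cluster 6. Unthinned, these shares were 9.28% and 19.97%, beside 1.63% and 9.58% in cluster 6. Each gene alone also differed in the thinned cells, with GABBR1 in 23.2% (WT) and 38.1% (FKO) and GABBR2 in 6.83% and 23.7%. For no combination was it tested whether the genes met more often than their separate shares would give. An alpha, a beta and a gamma subunit were found together in 0.234% (0.124 to 0.399) and 3.29% (2.84 to 3.79), against 0% and 0.326%. Without thinning this was 3.34% and 8.93%, beside 1.09% and 4.79% in cluster 6. GRIN1 met any GRIN2 gene in 0.485% (0.320 to 0.705) and 2.97% (2.54 to 3.45), against 0% in cluster 6 of both libraries. Without thinning this was 2.04% and 6.32%, beside 1.09% and 2.10% in cluster 6. The count of 0 of 168 cells in cluster 6 of the library labelled WT has an upper bound of 2.17%, so background could not be told apart from the 0.485% there, nor from the 0.234% of the GABA-A combination. The same holds for the GABA-B pair in that library, whose 1.74% lies within the cluster 6 interval (0.0151 to 3.27). Among cells with any AMPA UMI, GRIA2 was found in 49.0% and 75.4%, against 17.1% and 43.3% in cluster 6. Without thinning this was 68.5% and 84.0%, beside 34.1% and 52.5% in cluster 6. The thinned cells held a median of 3 and 5 receptor genes each, against 1 and 2 in cluster 6, and 5 and 7 over all kept cells unthinned.

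Partner genes of the receptors were read from a list of 52 auxiliary subunits, scaffolds, transporters, ADAR family genes of RNA editing and glycine receptors. Of the 47 that passed the limit of 1 CPM, 25 (53.2%) were at least 2-fold higher in the library labelled FKO and 0 lower, beside 26.6% and 2.21% of all genes, with a median log2 ratio of 1.07. Among these 25, CBLN1 (0.914 and 2.91 CPM) and KCTD8 (0.626 and 1.64 CPM) met the limit through that library alone. CBLN1, named after its values were seen, was at 1.13 less the all-gene median. Less that median, 10 of the 47 were higher and 1 lower by that fold (CNIH2), beside 9.82% and 10.4% of all genes. At any fold, 41 of the 47 were higher, beside 75.0% of all genes, and 6 lower, and 35 lay above the all-gene median. CNIH2, an AMPA auxiliary protein that slows channel closing, fell by 0.72 (interval -0.76 to -0.69) from 330 to 200 CPM, unlike the 4 GRIA genes, whose raw ratios were all above 0 (GRIA4 flips less the all-gene median). SHISA6, another AMPA auxiliary, went the other way from 4.33 to 30.3 CPM with a ratio of 2.81 (2.64 to 2.98). CACNG3, which with a mean of 0.533 CPM did not pass the limit, went from 5 to 58 UMIs with a ratio of 3.94 (2.63 to 5.61). Of the 10 AMPA auxiliary genes that passed the limit, 8 were higher, beside 75.0% of all genes, and 7 lay above the all-gene median. The median ratio of the 10 was 1.08. All 13 listed AMPA auxiliary genes, with CNIH2 the most abundant, summed to 495 and 574 CPM, a log2 ratio of 0.21.

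The 3 GABA-B auxiliary genes encode KCTD proteins that bind the receptor and shape its G protein response. KCTD8, named after its values were seen, met the limit of 1 CPM through the library labelled FKO alone (0.626 and 1.64 CPM). It was at 0.84 less the all-gene median. All 3 were at least 2-fold higher, beside 26.6% of all genes. KCTD16 led them, from 10.7 CPM (10.0 to 11.5) to 80.9 CPM (78.6 to 83.3), a ratio of 2.91 (2.81 to 3.02), followed by KCTD12 at 2.23 (2.08 to 2.39). GRIP2, a scaffold of AMPA receptors, had a ratio of 1.996 (1.80 to 2.20). HOMER3, a scaffold of group I receptors, had -0.30 (-0.38 to -0.23), CNIH3 had -0.20 (-0.39 to -0.02) and GABARAP, a GABA-A trafficking protein, had -0.16 (-0.22 to -0.10). SLC12A5 exports chloride and so sets whether GABA inhibits, and it went from 83.8 to 69.6 CPM, with a ratio of -0.27 (-0.33 to -0.21) that was 0.0047 at a limit of 5% mitochondrial UMIs. Its counterpart SLC12A2, which imports chloride, had a ratio of 1.19 (1.06 to 1.33) and was named after its values were seen. The 3 genes of the ADAR family of RNA editing, named after their values were seen, had ratios of 1.13 (ADAR, the most abundant), 1.37 (ADARB1) and 1.82 (ADARB2), or 0.59, 0.83 and 1.27 less the all-gene median. Editing itself cannot be read from these counts.

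Only some markers of other cells moved with the receptor genes. By their sums, the mesenchymal, oligodendrocyte lineage, floor plate, GABAergic and microglial lists had log2 ratios above the all-gene median of 0.55. The progenitor (0.24), cycling (0.50), astrocyte (0.47) and endothelial (0.40) lists lay under it, and the glutamatergic list was lower at -0.41. The library labelled FKO was higher in all 5 mesenchymal markers, whose sum went from 37.0 to 231 CPM, led by COL1A2. Of these markers, COL1A1, COL1A2 and COL3A1 lay above the all-gene median, and LUM (0.35) and DCN (0.42) under it. The 3 oligodendrocyte lineage markers summed to 0.848 and 10.0 CPM, led by SOX10, which had 0 UMIs in the library labelled WT. Progenitor markers, led by VIM, summed to 902 and 1067 CPM with 3 of 5 higher, and cycling markers, led by CENPF, to 49.2 and 69.5 CPM with 3 of 5 higher. Above the all-gene median were 1 progenitor, 2 cycling and 3 floor plate markers. Of all genes, 75.0% were higher. Floor plate markers, led by SPON1, summed to 50.05 and 73.8 CPM with 3 of 6 higher, and most of that rise is FOXA2 itself. The 4 astrocyte markers, led by SLC1A3, summed to 6.19 and 8.55 CPM, the 3 GABAergic markers, led by GAD1, to 2.22 and 4.47 CPM and the 3 glutamatergic markers to 167 and 126 CPM. Of these SLC17A8 was lower and SLC17A6, from 1.58 to 7.90 CPM, and SLC17A7 were higher. Microglial markers were near 0, at 0.104 and 0.241 CPM with CSF1R at 0, as were endothelial markers at 58 UMIs in each library, led by CLDN5. Mesenchymal markers stood at 1993 CPM in cluster 6 and at most 24.2 CPM elsewhere. Without cluster 6, an alternative chosen after seeing the data, 24 of 32 receptor genes were at least 2-fold higher, beside 26.1% of all genes. Without the shallow cluster 7, chosen likewise, the count was 20 of 32, beside 26.3%. Depth per cell and mitochondrial share (medians of 7.82% and 5.33% in kept cells) also differed between the libraries. The part of these cells, of depth and of RNA quality in the result was not tested.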

How the data were processed

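The deposited values are a raw UMI count for each gene in each barcode, 1 library per label. The file headers name Cell Ranger 7.1.0 and the processing notes 7.0 with GRCh38. Whether intronic reads were counted, and the annotation release, are not stated. Kept cells had at least 1000 UMIs and 500 genes, with a mitochondrial share of at most 10%. Barcodes with the highest Scrublet scores (scanpy 1.11.5), 0.8% per 1000 deposited barcodes, were left out, 977 labelled WT and 620 labelled FKO. UMIs were summed over kept cells, 76624608 and 57980260, and scaled to CPM. Ratios carry no pseudocount. A count of 0 was raised to 3, and genes with at most 3 counts in each of the libraries got no ratio. With 1 library per label no test was made. Intervals were exact (scipy 1.17.1): Poisson for levels, Clopper-Pearson for shares and, for ratios, binomial given the total of both counts. The steps were tested on simulated data.

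Clusters came from Seurat 5.3.0 (R 4.3.3) with canonical correlation integration, 30 dimensions and a resolution of 0.25. Receptor, partner and marker genes, mitochondrial and ribosomal protein genes, and genes at least 1.5-fold different between libraries were left out of the features. The clusters rest on that integration. Gene lengths came from GENCODE 29 (GRCh38), which matched 94.8% of the genes in the files and 47 of 47 members. Named members were those with at least 10% of their class UMIs in either library, and the 5 highest and 5 lowest ratios among members with at least 50 UMIs; partner genes were named by the same ratio rule. Some members that met the rule are not named or drawn, but they remain in every sum and count. The members and lists were chosen with earlier results of these data known. Alternatives changed the limits on cells, doublets, depth, pooling, cluster weights, scaling, the filter on low values, length and resolution.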

Additional observations from a re-analysis of the deposited data

Results flagged for a closer look

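Barcodes removed for a mitochondrial share over 10% were used only in the alternatives with a looser limit or none, and they held receptor UMIs well above the level that 3 counts would give (0.0839 CPM in the library labelled WT, 0.818 CPM in the library labelled FKO). The 4225 such barcodes labelled WT had 669 CPM of glutamate and 231 CPM of GABA receptor genes. In the 1015 labelled FKO these levels were 1540 CPM, or 1539.8 before rounding, and 450.5 CPM. As log2 ratios, FKO over WT, these are 1.20 (1.16 to 1.24) for glutamate and 0.96 (0.88 to 1.04) for GABA receptor genes. The GRIA2 share of AMPA UMIs was 32.6% and 48.7%. What these barcodes contain was not tested.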

How the results depend on the processing

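The count of 22 receptor genes at least 2-fold higher (of 32; 26.6% of all genes) became 12 less the all-gene median (9.82%), 12 less the median of genes of at least 100 kb (5.21%), 9 of 16 at a mean CPM of at least 10 (18.6%), 16 of 26 with at least 1 CPM in each library (22.1%) and 29 of 44 with no filter (40.7%). Elsewhere it was 19 to 26, beside 22.6% to 28.1% of all genes. None was 2-fold lower in any setting. Of all genes, between 1.68% (mean CPM of at least 10) and 20.3% (less the median of genes of at least 100 kb) were 2-fold lower.

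The summed glutamate ratio of 0.99 was 1.28 at 5% and 1.009 at 20% mitochondrial UMIs, 0.95 for all barcodes, 1.02 as a mean over cells, 0.95 with clusters weighted equally, 0.88 without mitochondrial and ribosomal protein UMIs, 0.44 less the all-gene median and 0.11 less the median of long genes. The summed GABA ratio of 1.11 was 1.46 at 5%, 1.07 for all barcodes, 1.14 thinned, 1.17 with clusters weighted equally, 1.16 in cells with a TPH2 UMI, 0.997 without mitochondrial and ribosomal protein UMIs, 0.56 less the all-gene median and 0.23 less that of long genes. Both stayed above 0 throughout.

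Some ratios changed sign. SLC12A5 was 0.0047 at 5% mitochondrial UMIs, which left 338 cells labelled WT and 2891 labelled FKO. Less the all-gene median, GABRA2 was -0.018, with that median inside its interval, and GRIA4 -0.22. Less the median of long genes, the AMPA class was -0.095, the GABA-A alpha class -0.12, GABBR1 -0.025, GABRA2 -0.35, GRIA4 -0.55, GRID1 -0.036 and GRIK5 -0.19. Taking off a larger median lowers every ratio by construction; the cause of the other changes was not tested. The settings with the median of long genes, with 1 CPM in each library, and without cluster 6 or 7, were chosen after seeing the data.

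Of 511 gene ratios under alternatives, 367 stayed within their counting intervals, 136 left them with the same sign and 8 changed sign; for classes the counts were 119, 60 and 2 of 181. Shares within classes stayed within their intervals in 530 of 700 cases and left them in 170. Shares of cells left them in 115 of 128, since they depend on depth. Genes with under about 20 UMIs, such as GRIK3 and GRM5 in the library labelled WT, have wide intervals.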
